A study of Mus musculus with 60 samples.

Results

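Heme and iron metabolism in the mouse kidney was examined through 9 genes chosen by name: Alas1, Fech, Hmox1, Tfrc, Slc11a2, Fth1, Ftl1, Slc40a1, and Ireb2. They were chosen with earlier results of these data known. All 9 had a row among the 55335 gene rows, and all 9 were among the 15546 genes that reached 1 count per 1000000 (CPM) in at least 1 library. The mRNA came from 60 male mice, 5 per genotype at each of ZT0, ZT4, ZT8, ZT12, ZT16, and ZT20, where ZT0 is lights on and ZT12 is lights off in a 12 h light and 12 h dark cycle. Control and cKOt mice both carried Bmal1lox/lox on a C57BL/6J background. The cKOt mice also carried the Pax8-rtTA and LC-1 transgenes, so that doxycycline switched on Cre recombinase along the renal tubule and inactivated Bmal1, the clock gene also called Arntl. Both genotypes drank doxycycline (2 mg/ml) for 2 weeks starting at 8 weeks of age and were killed about a month afterwards. The labels give the tissue as renal tubule, whereas the methods describe pieces of perfused whole kidney, so cells in which Cre was not active are also in the RNA. In such RNA, fewer cells of a type and less RNA per cell cannot be told apart. The question was whether the tubular clock sets the level of these transcripts and their change over the day.

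Heme is made by a chain of enzymes that starts and ends in the mitochondrion. ALAS1 catalyzes the first and rate-limiting step, FECH inserts iron in the last, and HMOX1 opens the heme ring again and frees its iron, giving biliverdin and carbon monoxide. Transferrin-bound iron enters cells through TFRC, SLC11A2 (also called DMT1) moves ferrous iron across membranes, ferritin built from FTH1 and FTL1 subunits stores it, and SLC40A1 (ferroportin) is the known cellular iron exporter. IREB2 (also called IRP2) is an RNA-binding protein that reads the iron level: in iron-poor cells it binds hairpins called iron-responsive elements (IREs), which blocks translation of mRNAs with an IRE near the 5′ end and stabilizes Tfrc mRNA, which has them in its 3′ UTR. The proximal tubule takes back iron and heme proteins that the glomerulus has filtered.

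The IRE hairpins are shown because the protein encoded by Ireb2 is known to bind such hairpins, and transcripts of 4 genes with the pattern are given. Whether Fech holds it is not reported here. GENCODE transcripts (release M21, GRCm38) were searched for a bulged C, 5 paired bases, and a 6-base loop, CAGTG followed by A, C, or T. G with T counted as a pair, and 6 bases on each side were printed. Capitals mark the bulged C and the loop. The Fth1 site lies in the 5′ UTR at chr19:9982732-9982760 (plus strand), the Ftl1 site in the 5′ UTR at chr7:45459779-45459807 (minus strand), and the Slc40a1 site in the 5′ UTR at chr1:45925465-45925493 (minus strand). Tfrc had 4 sites in its 3′ UTR on the plus strand, at chr16:32631219-32631247, chr16:32631598-32631626, chr16:32631663-32631691, and chr16:32631710-32631738, in the order given.
Fth1: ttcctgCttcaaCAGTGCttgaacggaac
Ftl1: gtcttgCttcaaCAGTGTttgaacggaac
Slc40a1: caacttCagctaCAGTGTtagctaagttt
Tfrc site 1: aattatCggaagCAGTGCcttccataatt
Tfrc site 2: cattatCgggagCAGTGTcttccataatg
Tfrc site 3: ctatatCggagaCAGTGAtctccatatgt
Tfrc site 4: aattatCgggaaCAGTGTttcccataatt
Fth1 and Ftl1 had the same base at 26 of 29 positions, and pairs of Tfrc sites at 18 to 25. The same pattern was present in 426 of 58797 protein-coding transcripts (0.725%) and in 222 of 21877 protein-coding genes (1.01%). A match describes these letters and is not a measured binding site. The search took only this strict pattern, so a gene without a match is not shown to lack an IRE.

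RefSeq promoter windows (GRCm38.p6, 250 bases before to 50 bases after the start) were matched for 5 of the 9 genes, namely Alas1, Tfrc, Fth1, Ftl1, and Ireb2. Hmox1, Slc40a1, Slc11a2, and Fech were not matched. Both strands were searched for CACGTG (the E-box bound by BMAL1 dimers), ACGTG (the core of the hypoxia response element, contained in CACGTG), TGACNNNGC (antioxidant response), AGGTCA (the core bound by REV-ERB and ROR), and the palindromic NRF1 motif of 10 letters, which is given in capitals in the Alas1 sequence. The following sites are shown because they are the motifs that were present, with the motif in capitals.
Alas1: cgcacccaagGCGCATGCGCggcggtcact
Tfrc: cggtaggtgtACGTGcggaaggaag
The Alas1 NRF1 motif lies at chr9:106247906-106247935, and 0.971% of 32851 promoter windows hold that motif. The Tfrc motif lies at chr16:32608884-32608908, and 19.6% of windows hold it. CACGTG (7.15% of windows), TGACNNNGC (12.4%), and AGGTCA (16.3%) were not found in these members' windows. Only these short windows and these exact letters were searched, so a gene without a match is not shown to lack such a site.

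Libraries held 17791420 to 20906706 counts on genes, and no pair of mice of the same group agreed within sampling noise. Group means of Arntl ranged between 2.73 and 48.4 CPM for controls and between 17.4 and 24.4 CPM for cKOt mice. That count covers the whole gene and cells without Cre. In the supplement of the study the library of cKOt mouse 4 at ZT16 is marked for removal, but it was kept here. Summed marker genes had a median of 21255 CPM for the proximal tubule, 391 CPM for endothelium, and 344 CPM for podocytes in control mice, so cells other than tubule cells were present. The 5 mice per group are separate animals, kept by the study out of 6 after it had looked at how they clustered, and 1 of the cKOt mice it left out is noted there as grouping with controls.

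Averaged over the 6 time points, 5 of the 9 genes were lower in cKOt mice and none was higher. Lower transcripts were Hmox1 (to 0.509 of the control level), Alas1 (0.594), Tfrc (0.821), Ftl1 (0.846), and Fth1 (0.88), by the quasi-likelihood F test of edgeR, with p-values adjusted after Benjamini and Hochberg. Fech, Slc11a2, Slc40a1, and Ireb2 did not pass the test. Of all retained genes 50% passed this test, 23.2% lower and 26.8% higher in cKOt mice, so a count of 5 among 9 is close to the share over all genes. The median log2 difference of the 9 genes was -0.18, beside 0.01 over all retained genes. In the comparison at single time points, 22 of 54 gene and time pairs passed, 21 of them lower in cKOt mice, and over all genes 16.5% of pairs did. By time point, 4 members passed at ZT0 (12.1% of all genes), 2 at ZT4 (12.5%), 5 at ZT8 (19.9%), 5 at ZT12 (21%), 4 at ZT16 (19.8%), and 2 at ZT20 (13.8%). In 11 of the 54 pairs every cKOt mouse was below every control mouse, and over all genes 8.92% of pairs did not overlap in either direction. All 11 belonged to Alas1, Hmox1, Tfrc, and Fth1. Because the 9 genes were chosen with earlier results of these data known, the shares over all genes are given as background only.

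**Figure D1:**
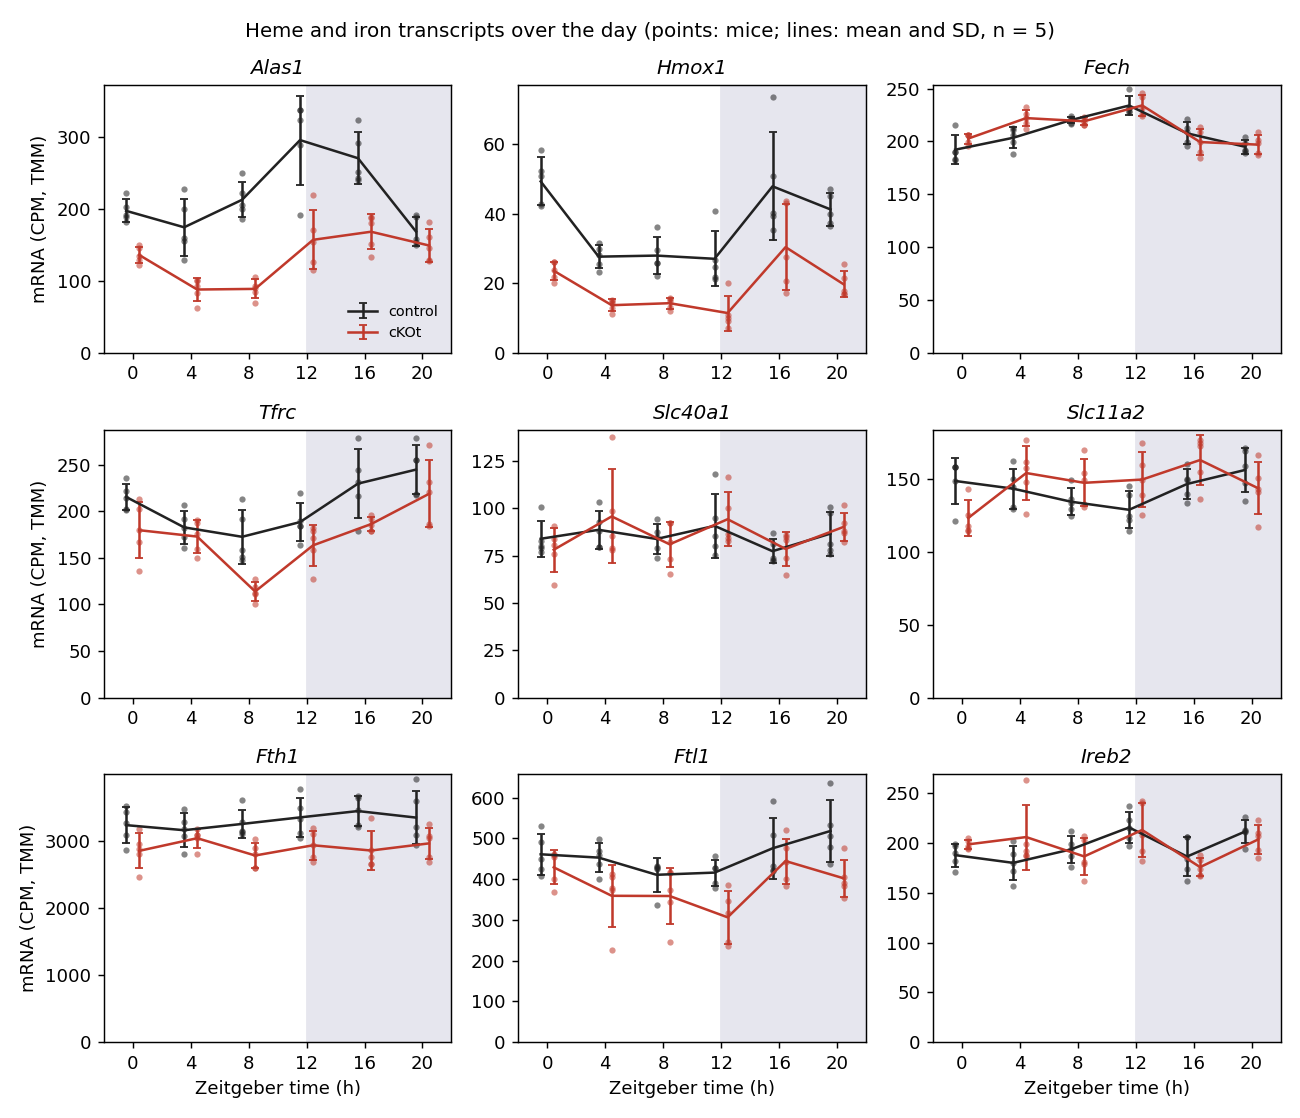
CPM of each of the 9 genes (y axis, CPM on TMM-scaled libraries) against Zeitgeber time in hours (x axis), with 1 point per mouse, lines through the means of 5 mice, and bars of 1 SD for control and cKOt mice. The cKOt line of Hmox1 stays below the control line at all 6 time points, that of Alas1 nearly meets it at ZT20, and the lines of Fech, Slc40a1, and Ireb2 run together.

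Alas1 (ENSMUSG00000032786, chr9:106233455-106248654, minus strand) encodes the enzyme that starts heme synthesis, and its transcript was lower in cKOt mice for most of the day. At ZT0 the control mice had 182, 189.8, 192, 202, and 223 CPM and the cKOt mice 122, 129, 134, 146, and 150.2 CPM. At ZT4 the values were 129, 155, 160.4, 201, and 229 CPM in controls and 62.8, 83.0, 93.7, 99.5, and 102 CPM in cKOt mice. At ZT8 they were 187, 201, 206, 222, and 250.3 CPM in controls and 69.9, 85.2, 90.8, 93.8, and 106 CPM in cKOt mice. At each of these times every cKOt mouse was below every control mouse, and the gap was widest at ZT8. At ZT12, control mice had 191, 289, 324, 339, and 339 CPM, while cKOt mice had 116, 126, 155, 171, and 219.5 CPM. At ZT16 the control values were 241, 244, 252, 293, and 325 CPM and the cKOt values 134, 152, 181, 187, and 189 CPM. At ZT20 the control values were 149.7, 155, 159, 189, and 192 CPM and the cKOt values 128, 129.9, 145, 161, and 183 CPM. Genotypes were separate again at ZT16 but overlapped at ZT12, through 1 control mouse with 191 CPM and 1 cKOt mouse with 219.5 CPM, and at ZT20 the ranges were intermingled.

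Over the whole day Alas1 averaged 220.4 ± 58.8 CPM in controls against 132 ± 38.9 CPM in cKOt mice (mean ± SD, n = 30 each), a log2 difference of -0.75 (SE 0.054, 95% interval -0.86 to -0.65, adjusted p = 9.27e-18), so that Alas1 fell by 40.6%. The log2 difference was -0.55 at ZT0 (adjusted p = 0.00213), -0.89 at ZT4 (adjusted p = 2.64e-06), and -1.31 at ZT8 (SE 0.13, adjusted p = 1.99e-11). It was -0.88 at ZT12 (adjusted p = 4.2e-07), -0.71 at ZT16 (adjusted p = 3.31e-05), and -0.15 at ZT20 (95% interval -0.41 to 0.11, adjusted p = 0.514). At ZT8 Alas1 in cKOt mice thus fell by 59.7%, and at ZT20 the test did not pass. The genotype difference itself varied over the day (interaction test, adjusted p = 0.000707), a test that 3.08% of all retained genes passed. This call held under all 15 processing alternatives. Few reads were counted on red cell genes: Alas2, the erythroid form of the enzyme, Hba-a2, and Hbb-bt did not reach 1 CPM in any library, and Hba-a1 averaged 0.193 CPM in controls and 0.114 CPM in cKOt mice. Reads that fit several places were not counted, and how many globin reads were lost in this way is not known. Slc4a1, of the same marker list, averaged 34.5 CPM in controls and 27.1 CPM in cKOt mice, but intercalated cells of the collecting duct also express it.

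Fech (ENSMUSG00000024588), the ferrochelatase that puts iron into protoporphyrin, did not differ detectably in mean level between the genotypes. It averaged 209 ± 17.0 CPM in controls against 212 ± 15.8 CPM in cKOt mice (mean ± SD, n = 30 each), a log2 difference of 0.021 (95% interval -0.0097 to 0.052, adjusted p = 0.27). Group means ran from 192 ± 13.5 CPM at ZT0 to 234 ± 9.06 CPM at ZT12 in control mice and from 197 ± 9.13 CPM at ZT20 to 234 ± 9.81 CPM at ZT12 in cKOt mice. The ranges overlapped at all 6 time points and no single time point passed the test.

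Hmox1 (ENSMUSG00000005413, chr8:75093621-75100589, plus strand), the inducible heme oxygenase, had the greatest fall in mean level among the 9 genes. At ZT0 the control mice had 42.0, 42.7, 50.9, 52.4, and 58.3 CPM and the cKOt mice 20.2, 21.9, 23.7, 26.0, and 26.2 CPM. At ZT4, controls had 23.1, 25.6, 28.1, 29.8, and 31.6 CPM and cKOt mice had 11.0, 12.8, 14.4, 15.0, and 15.2 CPM. At ZT8, controls had 22.0, 25.9, 25.9, 29.6, and 36.2 CPM and cKOt mice had 12.0, 13.2, 15.0, 15.5, and 15.6 CPM. All cKOt mice were below all control mice at these 3 times. At ZT12 the values were 21.3, 21.8, 24.6, 26.8, and 40.7 CPM in the controls and 7.02, 9.15, 10.1, 10.9, and 20.1 CPM in cKOt mice. At ZT16 the values were 35.2, 39.2, 40.2, 50.9, and 73.6 CPM in the controls and 17.2, 20.5, 27.4, 42.9, and 43.8 CPM in cKOt mice. At ZT20 the values were 36.4, 37.4, 40.0, 44.9, and 47.2 CPM in the controls and 16.8, 16.9, 17.7, 21.6, and 25.6 CPM in cKOt mice. The genotypes were separate at ZT12 and ZT20 and overlapped only at ZT16, where 2 cKOt mice reached 42.9 and 43.8 CPM.

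The day mean of Hmox1 was 36.8 ± 12.4 CPM in controls against 18.8 ± 8.54 CPM in cKOt mice (mean ± SD, n = 30 each), a log2 difference of -0.98 (SE 0.077, 95% interval -1.13 to -0.83, adjusted p = 3.32e-16), so that Hmox1 fell by 49.1%. The single-time differences lay between -1.19 at ZT12 (adjusted p = 3.9e-06) and -0.66 at ZT16 (adjusted p = 0.00517), and all 6 passed. The call at ZT16 was lost without replicate 1 (adjusted p = 0.131), replicate 4 (0.0552), or replicate 5 (0.099), each removed from every group. A difference that varied over the day was not detected (interaction test, adjusted p = 0.735). Hmox1 is also made by macrophages. Of the 8 retained macrophage markers 7 were lower in cKOt mice (median log2 difference -0.22), beside 23.2% of all retained genes. The sum of these markers had a median of 125 CPM in controls (lowest 82.8, highest 160.5) and of 112 CPM in cKOt mice (lowest 89.8, highest 127), whereas Cd163, Marco, Spic, and Vsig4 did not reach 1 CPM and Csf1r differed by -0.01 (adjusted p = 0.806). The part of macrophages in the Hmox1 difference was not tested.

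**Figure D2:**
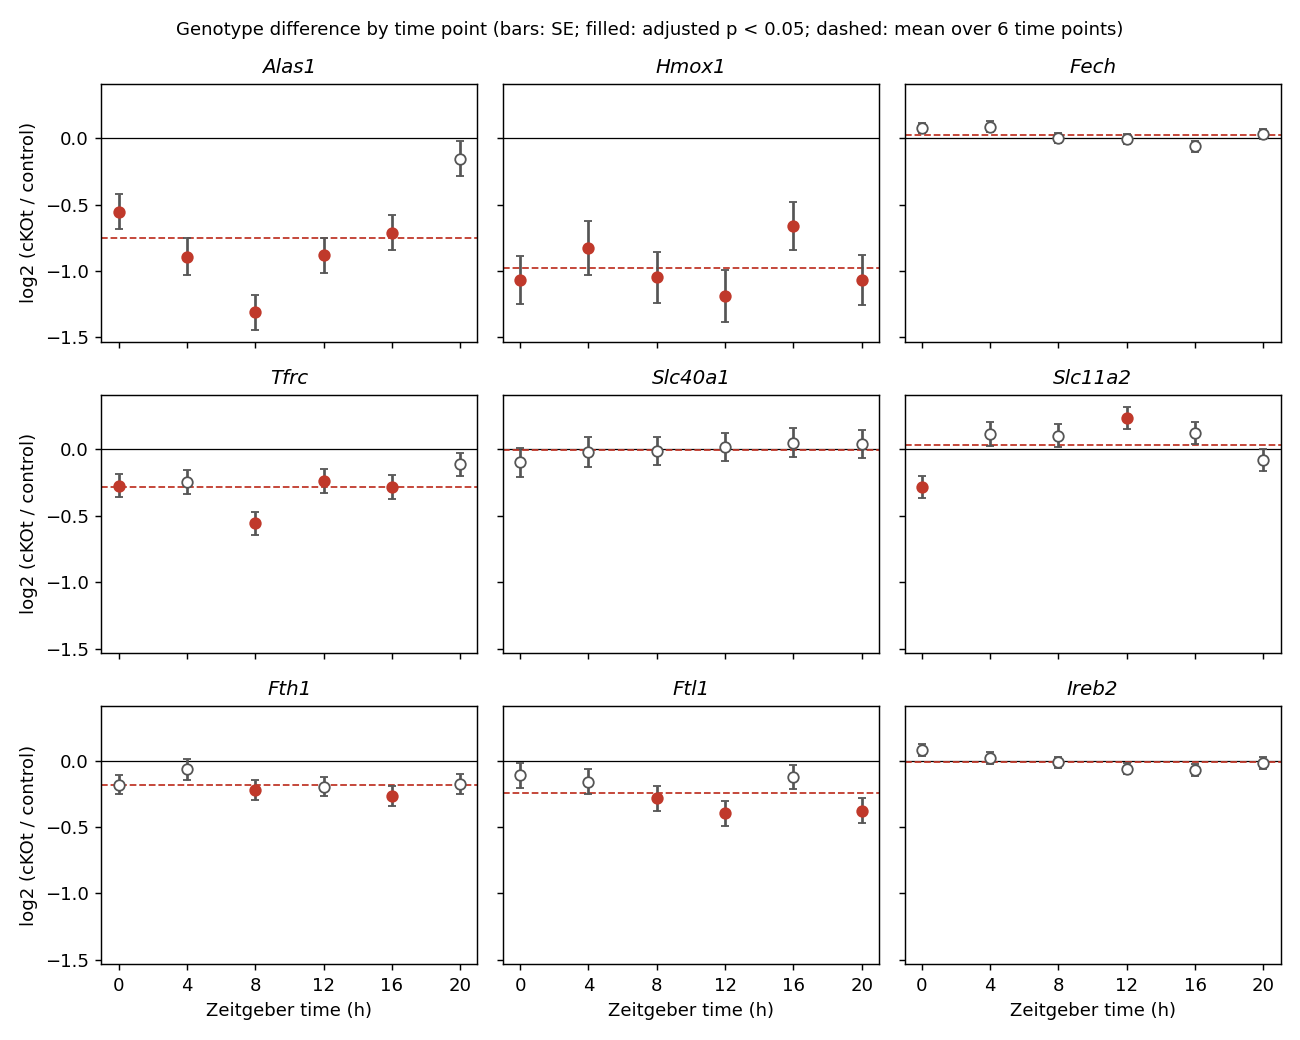
Log2 difference between cKOt and control mice (y axis) at each Zeitgeber time in hours (x axis) for the 9 genes, with bars of 1 SE, a dashed line at the mean over the 6 times, and filled points where edgeR's test passed at an adjusted p of 0.05. Alas1 runs from -1.31 at ZT8 to -0.15 at ZT20, Hmox1 stays between -1.19 and -0.66, and Slc11a2 crosses from -0.28 at ZT0 to 0.24 at ZT12.

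Tfrc (ENSMUSG00000022797, chr16:32608920-32632794, plus strand), the transferrin receptor, was lower in cKOt mice, with the widest gap at ZT8. At ZT8 the control mice had 147, 151, 159, 192, and 213 CPM and the cKOt mice 100.4, 111, 112, 119, and 127 CPM, and no cKOt mouse reached the lowest control. At ZT0 the values were 202, 203, 215, 222, and 236 CPM in controls and 136, 167, 179.8, 202, and 213 CPM in cKOt mice, and the upper cKOt mice lay among the controls. At ZT16 they were 178, 216, 231, 244, and 279 CPM in controls and 179, 179, 186, 191, and 196 CPM in cKOt mice, with 1 control mouse at the foot of the cKOt range. Control and cKOt mice ranged from 161 to 207 and 150.2 to 191 CPM at ZT4, from 164 to 219.6 and 127 to 182 CPM at ZT12, and from 217 to 278 and 184 to 271 CPM at ZT20. The day mean was 206 ± 35.1 CPM in controls against 172 ± 38.1 CPM in cKOt mice (mean ± SD, n = 30 each), a log2 difference of -0.28 (SE 0.036, 95% interval -0.36 to -0.21, adjusted p = 1.93e-09), so that Tfrc fell by 17.9%. The difference at ZT8 was -0.56 (SE 0.09, adjusted p = 2.64e-06), and that call held under all 15 alternatives. The smaller differences at ZT0 (-0.27, adjusted p = 0.0306), ZT12 (-0.24, adjusted p = 0.0486), and ZT16 (-0.28, adjusted p = 0.0167) passed under 10, 5, and 11 of the 15. The ZT12 call was lost, among others, without the library marked for removal (adjusted p = 0.0522) and without cKOt mouse 5 at ZT4 (0.0528). Those at ZT4 and ZT20 did not pass, and the interaction test gave an adjusted p of 0.276.

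Slc11a2 (ENSMUSG00000023030, chr15:100387898-100425072, minus strand) carries ferrous iron over the plasma and endosomal membranes, and its day mean did not differ detectably between the genotypes. It averaged 143 ± 15.1 CPM in controls against 147 ± 19.8 CPM in cKOt mice (mean ± SD, n = 30 each), a log2 difference of 0.036 (95% interval -0.031 to 0.10, adjusted p = 0.396). At ZT0 the control mice had 121, 148, 158, 158, and 158 CPM and the cKOt mice 114, 115, 118, 126, and 143 CPM. At ZT12 the control mice had 114, 122, 124, 139, and 145 CPM and the cKOt mice 126, 139, 149, 159.7, and 175 CPM. The cKOt mice were thus mostly lower at ZT0 and mostly higher at ZT12, with overlap at both times. The log2 difference was -0.28 at ZT0 (adjusted p = 0.0159) and 0.24 at ZT12 (adjusted p = 0.0341), the 1 higher call among the 54 pairs. These calls held under 11 and 10 of 15 alternatives, and without replicate 2 the ZT12 difference was 0.14 (adjusted p = 0.37). The interaction test passed (adjusted p = 0.0325), but in only 9 of 15 alternatives. It was lost without the RUVs factors, which are estimates of unwanted variation taken from the spread among mice of the same group (0.123), with the batch of the study's sample sheet in their place (0.0889), and without replicate 1 (0.105), 2 (0.128), 3 (0.121), or 4 (0.202). The control mouse at 121 CPM at ZT0 stood apart from the other 4, which lay between 148 and 158 CPM.

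Both ferritin subunits were modestly lower in cKOt mice. For Fth1 (ENSMUSG00000024661, chr19:9980598-9985098, plus strand), the heavy subunit with the ferroxidase activity, the control mice at ZT8 had 3095, 3125, 3143, 3286, and 3607 CPM and the cKOt mice 2588, 2596, 2809.8, 2886, and 3025 CPM. The genotypes did not overlap at that time. At ZT16 the control mice had 3212, 3230.1, 3459, 3642, and 3671 CPM and the cKOt mice 2655, 2656, 2754, 2867, and 3344 CPM, and only the cKOt library marked for removal, at 3344 CPM, was within the control range. Over the day Fth1 averaged 3296 ± 272 CPM in controls against 2903 ± 223 CPM in cKOt mice (mean ± SD, n = 30 each), a log2 difference of -0.18 (SE 0.03, 95% interval -0.24 to -0.13, adjusted p = 8.6e-07), so that Fth1 fell by 12.0%. At single times it passed at ZT8 (-0.22, adjusted p = 0.0282) and ZT16 (-0.27, adjusted p = 0.00647), and these calls held under 12 and 13 of 15 alternatives. The other 4 times gave -0.20 to -0.065 and did not pass.

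Ftl1 (ENSMUSG00000050708, chr7:45457944-45459884, minus strand) encodes the light subunit, which helps the mineral core to form. At ZT12 the control mice had 377, 391, 427, 428, and 456 CPM and the cKOt mice 237, 245, 317, 347, and 386 CPM, so that 4 of the 5 cKOt mice were below all controls. At ZT20 the control mice had 436, 479, 507, 532, and 636 CPM and the cKOt mice 354, 383, 391, 404, and 477 CPM, and again 1 cKOt mouse overlapped. The day mean was 456 ± 61.8 CPM in controls against 383 ± 72.8 CPM in cKOt mice (mean ± SD, n = 30 each), a log2 difference of -0.24 (SE 0.038, 95% interval -0.32 to -0.17, adjusted p = 3.26e-07), so that Ftl1 fell by 15.4%. The difference was -0.40 at ZT12 (adjusted p = 0.000962), -0.38 at ZT20 (adjusted p = 0.00335), and -0.28 at ZT8 (adjusted p = 0.0232), calls that held under 15, 12, and 10 of 15 alternatives. Ferritin genes have many processed copies in the mouse genome, and reads that fit several places were not counted. Among 16 ferritin rows the other Fth copies held 73 counts, which is 0.0021% of the 3479061 counts on Fth1, and the other Ftl copies held 492 counts, which is 0.104% of the 471162 on Ftl1. How many reads were lost to both genes through such copies is not known from the counts.

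Slc40a1 (ENSMUSG00000025993, chr1:45908068-45926523, minus strand), the iron exporter, averaged 85.2 ± 10.9 CPM in controls against 86.4 ± 15.1 CPM in cKOt mice (mean ± SD, n = 30 each), a log2 difference of -0.0037 (95% interval -0.089 to 0.082, adjusted p = 0.953). Ireb2 (ENSMUSG00000032293, chr9:54863789-54912530, plus strand), the iron-sensing RNA-binding protein, averaged 196 ± 19.2 CPM in controls against 197 ± 22.5 CPM in cKOt mice, a log2 difference of -0.0098 (95% interval -0.045 to 0.025, adjusted p = 0.675). For both genes the ranges overlapped at all 6 time points and no single time point passed. With these intervals, a change of the mean by the size seen for Tfrc lies outside the interval of both genes. Of the 4 genes for which the IRE pattern is given, Fth1, Ftl1, and Tfrc were lower in cKOt mice, and Slc40a1 did not pass the test. IREs act on translation or on mRNA stability, and protein levels were not analysed here.

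Per kilobase of annotated exon, Fth1 was the most abundant of the 9 transcripts (950.3 ± 78.5 CPM per kb in control mice, SD, n = 30), followed by Ftl1 (340.0 ± 46.1 CPM per kb). Next came Alas1 (35.7 ± 9.52 CPM per kb) and Tfrc (33.2 ± 5.68 CPM per kb), which were within their spread of each other, as were Slc11a2 (22.5 ± 2.37), Hmox1 (21.0 ± 7.06), and Ireb2 (20.7 ± 2.02). Fech (15.1 ± 1.23 CPM per kb) and Slc40a1 (9.47 ± 1.21 CPM per kb) stood last, each apart from its neighbor. In cKOt mice the order was Fth1, Ftl1, Tfrc, Slc11a2, Alas1, Ireb2, Fech, Hmox1, and Slc40a1, so Alas1 moved from place 3 to place 5 (21.3 ± 6.31 CPM per kb) and Hmox1 from place 6 to place 8 (10.8 ± 4.88 CPM per kb). In that order Tfrc to Ireb2 were within their spread from each neighbor to the next, and so were Fech to Slc40a1. The exons are the union over annotated transcripts, so the values rank levels only roughly.

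Change over the day was tested within each genotype. In control mice 5 of the 9 genes passed (Alas1, Hmox1, Fech, Tfrc, and Ftl1), and 30.6% of all retained genes did. In cKOt mice the same genes and Slc11a2 passed, 6 of 9, beside 26.6% of all retained genes. The adjusted p in control and cKOt mice was 4.99e-07 and 1.59e-08 for Alas1, 1.95e-05 and 6.74e-06 for Hmox1, and 1.35e-07 and 1.12e-05 for Fech. It was 2.7e-05 and 1.08e-09 for Tfrc, 0.00986 and 0.00435 for Ftl1, and 0.12 and 0.00523 for Slc11a2. Slc11a2 in cKOt mice lost its call without replicate 2 (0.0526) or 4 (0.0849) and with a 24 h harmonic in place of the 6 times (0.0558). Ireb2 did not pass (0.0815 and 0.155), but it passed under 5 of 16 alternatives in control mice (lowest adjusted p = 0.0107, without replicate 5) and under 1 of 16 in cKOt mice (0.0272, with the batch). Slc40a1 and Fth1 passed in neither genotype under any of the 16. Among controls the highest group mean was 1.75 times the lowest for Alas1 (ZT12 over ZT20), 1.82 times for Hmox1 (ZT0 over ZT12), and 1.42 times for Tfrc (ZT20 over ZT8). In cKOt mice the ratio was 1.91 for Alas1 (ZT16 over ZT4), 2.65 for Hmox1 (ZT16 over ZT12), and 1.92 for Tfrc (ZT20 over ZT8). Fth1 had the smallest ratio, 1.09 in both genotypes. Ftl1 in control mice lost its call without RUVs factors (adjusted p = 0.247), with the library batch in their place (0.223), and without replicate 2 (0.117) or 3 (0.0799).

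To place these changes on the 24 h cycle, cosine models were fitted to both genotypes and ranked by the Bayesian information criterion (BIC), and a model was taken at a BIC weight of at least 0.65. The models are no rhythm, loss of rhythm in cKOt mice, gain, the same rhythm in both, and a rhythm in both that differs. A rhythmic model was taken for 5 of the 9 genes, beside 37.3% of all retained genes. Hmox1 (weight 0.983), Ftl1 (0.951), and Tfrc (0.79) had the same rhythm in both genotypes, a class that held 25.2% of all genes. The cosine of Hmox1 peaked at ZT20.2 in control and ZT20.3 in cKOt mice when each was fitted alone, with peak-to-trough amplitudes of 0.93 and 0.98 on the log2 scale. That of Tfrc peaked at ZT19.8 and ZT19.9, with amplitudes of 0.48 and 0.74, and that of Ftl1 at ZT19.9 and ZT21.4, with amplitudes of 0.30 and 0.38. These are times of the fitted curves. The highest group mean of Tfrc was at ZT20 in both genotypes and that of Ftl1 at ZT20 in controls, but Ftl1 in cKOt mice was highest at ZT16 (444 CPM, against 402 CPM at ZT20). Hmox1 was lower at ZT20 than at both neighboring times, with means of 47.8, 41.2, and 49.2 CPM at ZT16, ZT20, and ZT0 in controls and of 30.4, 19.7, and 23.6 CPM in cKOt mice. Without replicate 2 Tfrc lost the class, and a rhythm that differs had the highest weight (0.598, amplitudes of 0.525 and 0.842). Tfrc also lost it at a minimum BIC weight of 0.8. Ftl1 lost it without replicate 3, where the same rhythm had a weight of 0.624.

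Alas1 was the clearest case of a rhythm that differed between the genotypes (weight 0.999), a class of 2.37% of all genes. Its cosine peaked at ZT13.0 in control mice, near lights off, and at ZT17.3 in cKOt mice, which is 4.32 h later, with amplitudes of 0.75 and 0.96. Fech was placed in the same class with a weight of 0.672, close to the minimum, with peaks at ZT10.6 and ZT8.67 and amplitudes of 0.27 and 0.22. Without replicate 1, 2, or 3 Fech left that class. No rhythm was the model taken for Slc40a1 (weight 0.926) and Fth1 (0.855), as for 34% of all genes, and no model reached the minimum weight for Slc11a2 or Ireb2, as for 28.7%. None of the 9 was placed with loss (6.25% of all genes) or gain (3.42%) of rhythm in cKOt mice, although Ireb2 was placed with loss without replicate 5 (weight 0.911). Fth1 left the class of no rhythm without replicate 1 (weight 0.632) or 4 (0.452).

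**Figure D3:**
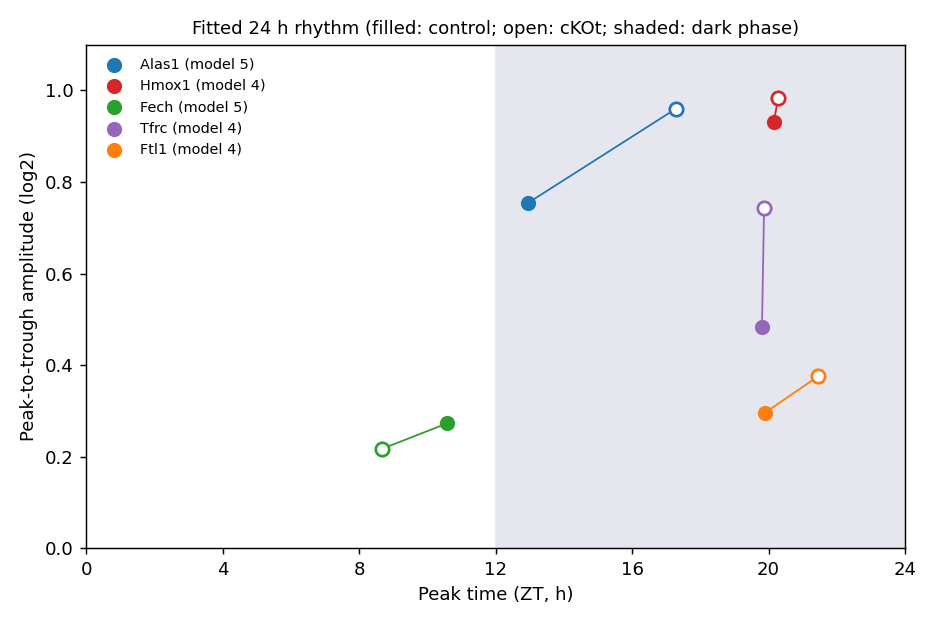
Peak time in Zeitgeber hours (x axis) and peak-to-trough amplitude on the log2 scale (y axis) of the cosine fitted to each genotype, for the 5 genes with a rhythmic model, with a line joining the control (filled) and cKOt (open) points of a gene and the dark phase shaded. The Alas1 line runs from ZT13.0 to ZT17.3, whereas the points of Hmox1 and Tfrc lie near ZT20 in both genotypes.

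The other genes of the pathway were followed as 7 lists, which include the 9 genes. Their counts stand beside 23.2% lower and 26.8% higher in cKOt mice over all retained genes. In heme synthesis, 5 of 8 retained genes were lower, 1 was higher, and 2 did not pass (median log2 difference -0.061, beside 0.01 over all genes). After Alas1, the clearest fall was in Cpox (-0.32, adjusted p = 2.24e-16), the coproporphyrinogen oxidase, followed by Alad (-0.12, adjusted p = 0.000283), which joins the product of ALAS1 into a ring. Ppox (0.22, adjusted p = 5.38e-13), which acts just before FECH, rose. Urod and Uros differed by at most 0.068 in either direction. Without RUVs factors, and with the library batch in their place, 2 of the 8 genes were lower, Alas1 and Cpox, and 3 were lower without replicate 1, 2, 4, or 5. In heme breakdown and transport, 5 of 13 retained genes were lower and 3 were higher (median 0.0051), and without RUVs factors 3 were lower and 1 was higher. Blvrb (-0.50, adjusted p = 9.16e-12), a biliverdin reductase, and Slc48a1 (-0.12, adjusted p = 2.64e-08), a heme transporter of endolysosomes, were lower along with Hmox1, whereas Blvra, the other biliverdin reductase, was higher (0.075, adjusted p = 0.00626). Slc46a1 (0.13, adjusted p = 5.58e-05), a folate and heme carrier, was higher, although not without RUVs factors (adjusted p = 0.0555). Hmox2 (0.037, adjusted p = 0.108), the constitutive heme oxygenase, did not pass.

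In cellular iron uptake, 5 of 18 genes were lower and 5 were higher (median 0.00026), with 3 higher when RUVs factors were left out and 3 lower when replicate 3 was. Besides Tfrc, Steap2 (-0.27, adjusted p = 2.8e-12), a metalloreductase, was lower, and Slc22a17 (0.34, adjusted p = 7.52e-14), a receptor for lipocalin, and Slc39a8 (0.24, adjusted p = 1.5e-10), a metal ion importer, were higher. The scavenger receptor Lrp2 (-0.087, adjusted p = 0.017), or megalin, was lower, and its partner Cubn (-0.080, adjusted p = 0.0772) did not pass. In iron storage and chaperones, Fth1 and Ftl1 were lower, and Pcbp2 (0.046, adjusted p = 0.0428), a chaperone that delivers iron to ferritin, was called higher but passed under 5 of 15 alternatives. Ncoa4 (0.00046, adjusted p = 0.988), which takes ferritin to the lysosome, did not pass. Of the 3 retained genes of iron export, 2 were higher. Cp (0.71, adjusted p = 2.73e-17), the ferroxidase ceruloplasmin, rose from 46.6 ± 10.3 to 75.7 ± 10.9 CPM (SD, n = 30), 1.64-fold, and Heph (0.24, adjusted p = 1.31e-10), the membrane-bound ferroxidase, also rose, while their partner Slc40a1 did not pass.

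Among regulators of iron and heme, 3 of 9 genes were higher and 3 lower (median -0.0098). Nfe2l2 (0.19, adjusted p = 2.58e-08), the activator of antioxidant genes that include Hmox1 and the ferritins, was higher, as were Bmp6 (0.25, adjusted p = 7.71e-08) and Hfe (0.22, adjusted p = 2.96e-07), both of the hepcidin pathway. Epas1 (-0.16, adjusted p = 9.9e-06), the oxygen-regulated factor also called HIF-2α, was lower, and Fbxl5 (-0.10, adjusted p = 5.09e-05), which targets IREB2 for degradation, was lower too. Bach1 (0.026, adjusted p = 0.474), the repressor of Hmox1 that heme releases, and Aco1 (-0.017, adjusted p = 0.653), the other IRE-binding protein, did not pass. In mitochondrial iron handling and iron-sulfur cluster assembly, 11 of 22 genes were lower and 5 were higher (median -0.063). Slc25a39 (-0.38, adjusted p = 4.03e-22), a mitochondrial glutathione carrier, Hspa9 (-0.19, adjusted p = 2.16e-15), a chaperone of cluster transfer, and Nfs1 (-0.13, adjusted p = 7.35e-08), the cysteine desulfurase, were lower. Over the 7 lists, the interaction test passed for 1 gene each in heme synthesis, heme breakdown and transport, and iron uptake. These were Alas1, Abcg2 (adjusted p = 0.00638), and Slc11a2.

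**Figure D4:**
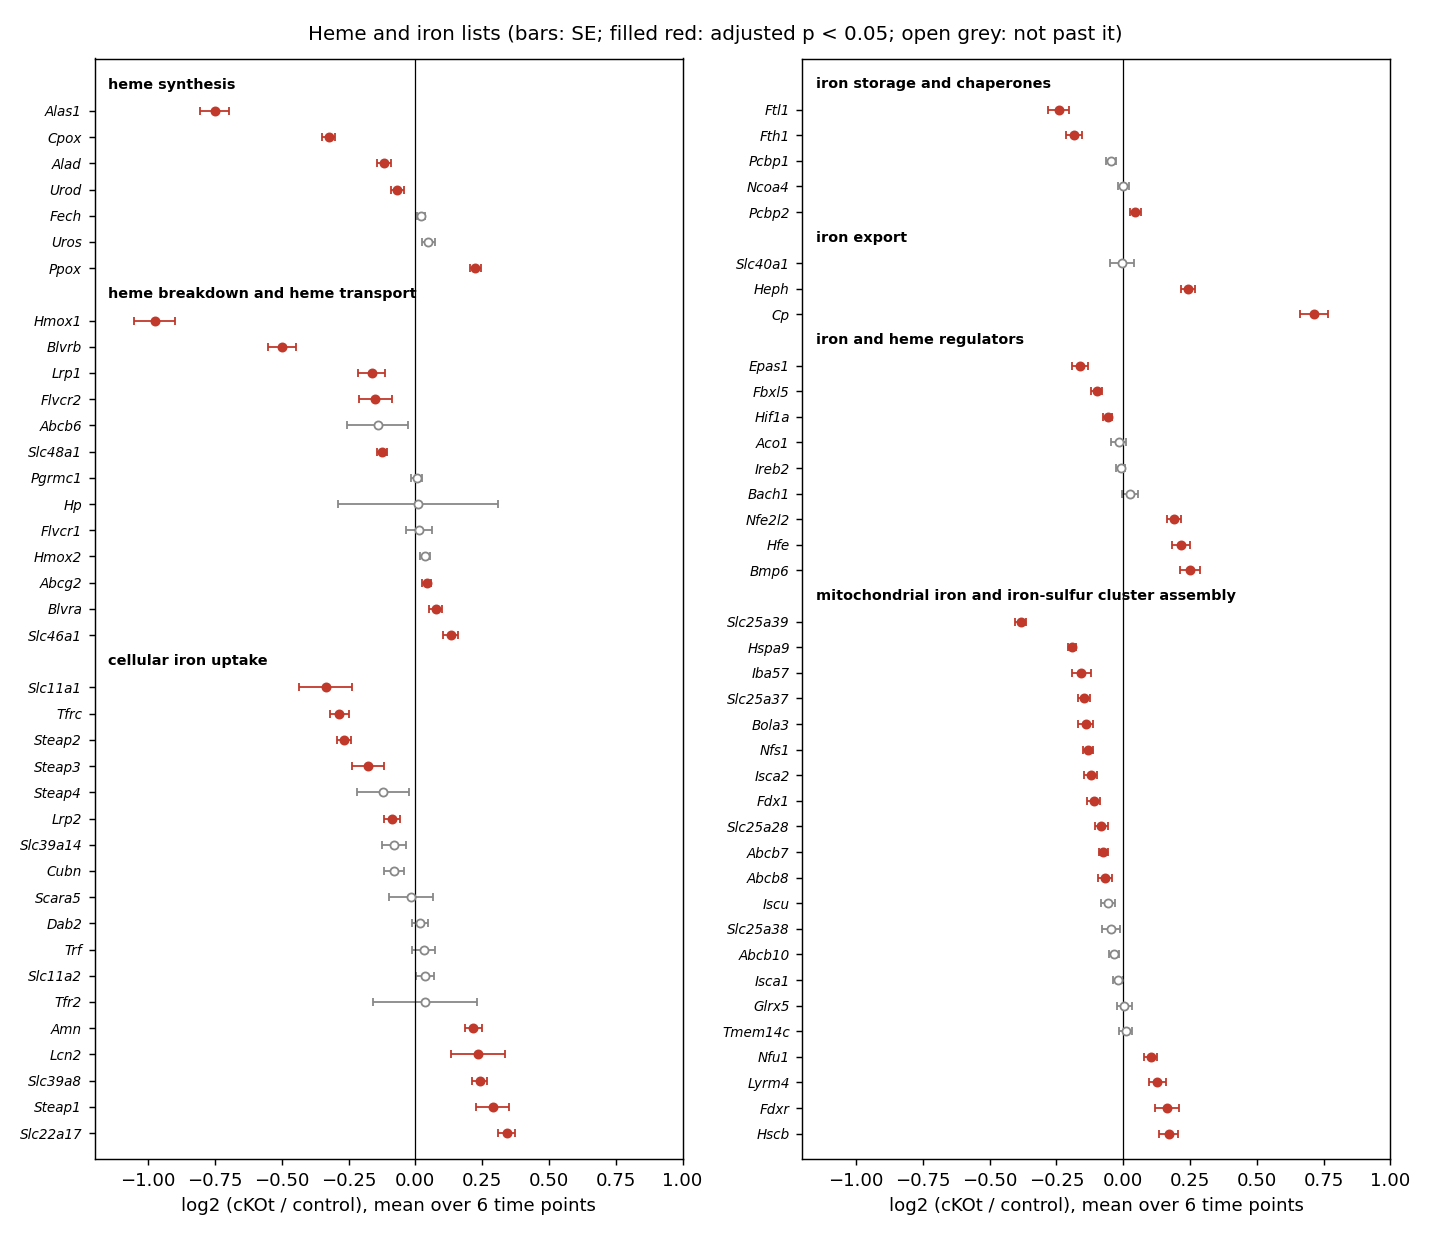
Log2 difference of the day means between cKOt and control mice (x axis) for the retained genes of the 7 lists that are reported here (rows), 1 point per gene with bars of 1 SE, filled where edgeR's test passed. Hmox1 at -0.98 and Alas1 at -0.75 are the lowest points, and Cp at 0.71 is the highest.

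The genes with the most similar profile over the 12 group means were found among 9308 genes by Pearson's r on the log2 scale, which describes the means and is given without a test. For Alas1 they were Cnn3 (r = 0.93) and Kcnk5 (0.923), for Hmox1 Zcchc17 (0.976) and Mast2 (0.964), and Fech had Nadk2 (0.95) among them. Tfrc was nearest to Sec22b (0.938) and Mrpl42 (0.938), and Slc40a1 to Baz2b (0.932) and 2610044O15Rik8 (0.906). For Fth1 they were Prdx6 (0.976), a peroxiredoxin, and Synpr (0.965), for Ftl1 Rab8a (0.965) and Ftsj1 (0.964), and for Ireb2 Fam91a1 (0.964) and Mosmo (0.962). Slc11a2 had the least close neighbors, D930048N14Rik (0.854) and AI480526 (0.808). All profiles share the same 60 libraries.

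The study's sample sheet places the libraries in 6 batches, each of which held both genotypes. In each batch the difference was averaged over the time points held in both genotypes, which numbered from 2 to 6. The batches thus differ in the times that they cover. Within batches the cKOt mice were lower in 6 of 6 for Alas1 (log2 difference -1.17 to -0.46), Hmox1 (-1.12 to -0.89), Tfrc (-0.41 to -0.11), Fth1 (-0.22 to -0.15), and Ftl1 (-0.40 to -0.19). The 4 genes whose means did not pass went in both directions, lower in 2 of 6 batches for Fech and Ireb2 and in 3 of 6 for Slc40a1 and Slc11a2.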

How the data were processed

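Poly(A) RNA of 60 mouse kidneys was sequenced as stranded single reads. Per the submitters' processing notes, the tools were bcl2fastq, cutadapt 1.8, STAR 2.5.3a, and HTSeq 0.9.1, with genome build GRCm38. The authors deposited raw counts of uniquely mapped reads per Ensembl gene for each library. Reads mapped to several places (24.3% to 29.4%), to no gene (5.19% to 7.87%), or to overlapping genes (0.708% to 0.927%) are given apart and were left out here. Those mapped to several places made up 25.7% to 29.4% in control and 24.3% to 26.9% in cKOt mice. Those mapped to no gene made up 5.19% to 6.72% in control and 5.89% to 7.87% in cKOt mice. The part of these shares in the gene counts was not tested. The median depth was 18545208.5 counts on genes. Intervals (95%) are the log2 difference plus and minus 1.96 SE. They rest on the spread between mice that remains after the RUVs factors are fitted.

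Symbols were joined by Ensembl ID from GENCODE M21 (55154 of 55335 rows). Genes were kept when any 1 library reached 1 CPM (15546), libraries were scaled by TMM, and CPM values were computed from these counts. Group means for 2 genotypes at 6 times and 2 RUVs factors (rewritten here) were fitted in edgeR 4.0.16 (R 4.3.3) with the quasi-likelihood F test, and p-values were adjusted by Benjamini-Hochberg over all kept genes, with a threshold of 0.05. SE is the log2 difference divided by the square root of F. Tests covered the day mean, each time, the interaction, and time within each genotype. Rhythms used a model selection written after dryR (24 h, BIC weight of at least 0.65). The test was checked on simulated counts. The 9 genes and all lists were chosen with earlier results of these data known. Named genes were the 9 members, up to 4 genes of each list with the lowest adjusted p, and the 2 genes of most similar profile per member among genes of at least 10 CPM. Further list genes (Hmox2, Blvra, Abcg2, Urod, Uros, Lrp2, Cubn, Ncoa4, Fbxl5, Bach1, Aco1) were added for their known roles after their values were seen. Some genes that this rule would name are not reported here, although the list counts include them.

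Alternatives were DESeq2 1.42.0 (test or size factors), limma 3.58.1, other filters, no RUVs factors, the batch, a replicate block, each replicate left out, the marked library left out, and, chosen after seeing the data, cKOt mouse 5 at ZT4 left out.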

Additional observations from a re-analysis of the deposited data

Results flagged for a closer look

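In 8 of 108 sets of 5 mice, 1 mouse stood apart from the other 4 by Dixon's test, and chance gives about 1 in 20. Hmox1 was 40.7 CPM in control mouse 2 at ZT12, with the others between 21.3 and 26.8 CPM. Fech was 215 CPM in control mouse 3 at ZT0, above 182.6 to 189.7 CPM in the rest, and 249.8 CPM in control mouse 4 at ZT12, above 228 to 232 CPM. Slc40a1 was 101 CPM in control mouse 1 at ZT0, where the others lay between 77.1 and 83.0 CPM. Slc11a2 was 121 CPM in control mouse 2 at ZT0, below 148 to 158 CPM. Ftl1 was 336 CPM in control mouse 3 at ZT8, below 425 to 433 CPM.

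In cKOt mouse 5 at ZT4, Ftl1 was 226 CPM, below 374 to 413 CPM in the other mice of the group, and Ireb2 was 264 CPM, above 187 to 199 CPM. In that library the summed tubular injury markers were 704 CPM (486 to 552 CPM in the others), the macrophage markers 93.2 CPM (108 to 117 CPM), and the erythroid markers 19.6 CPM (22.8 to 31.8 CPM). Over all cKOt mice the injury sum was mostly Spp1 (mean 547 CPM, with Vcam1 next at 9.85 CPM). The erythroid sum was mostly Slc4a1 (27.1 CPM, with Hba-a1 at 0.114 and Hbb-bs at 0.339 CPM). The part of these markers in the 2 values was not tested. Without this library the count of members lower in cKOt mice over the day was still 5.

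The genotype difference varied between time points for Alas1 (adjusted p = 0.000707) and Slc11a2 (adjusted p = 0.0325).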

How the results depend on the processing

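Under all 15 alternatives 5 members passed the test of the day mean, while the share of all genes that passed, 50%, was 22.4% of 32924 genes with no filter, 41% without RUVs factors, 41.3% with the batch, and 43.9% to 50% in the others. The number of members that passed the interaction test was 2, and 1 without RUVs factors, 1 with the library batch in their place, and 1 to 2 with each replicate left out; over all genes it was 479 and became 263, 312, and 233 to 429. Time in cKOt mice passed for 4142 genes and for 2608 without replicate 4. A rhythmic model was taken for 5 members, for 3 at a BIC weight of 0.8, and for 3 to 6 with each replicate left out. Single-time pairs that passed numbered 22, with a range of 16 to 23.

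Of the results with no call, Slc40a1 differed by 0.015 without RUVs factors, 0.018 with the batch, and -0.045 to 0.035 with each replicate left out, against -0.0037, and Ireb2 by 0.011 (no RUVs factors) and 0.011 (batch), against -0.0098. The cause was not tested.

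Replicate numbers did not pair the mice: deviations from group means correlated by 0.0010 over 330 pairs with the same number and by -0.00025 over 1320 others, and 13 of 60 libraries correlated best with their own number. With the replicate number as a block, 5 members passed for the mean, 2 for the interaction, 22 single-time pairs, and 5 and 6 for time in control and cKOt mice. The lowest count of any member in any library was 127 (Hmox1).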

Other observations

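Marker lists were followed for cell types of the kidney, for tubular injury, for erythroid cells, and for hepatocytes, which are liver cells. Over all retained genes 23.2% were lower and 26.8% higher in cKOt mice. In the endothelium list 5 of 5 genes were lower in cKOt mice (median log2 difference -0.11), and in the podocyte list none of 4 passed. Proximal tubule markers were lower for 4 of 8 genes and higher for 3. Among markers of the thick ascending limb 3 of 4 were higher, as were 3 of 4 of the distal convoluted tubule and 4 of 6 of the collecting duct. Umod, the most abundant marker of the thick ascending limb list, fell from 3163 to 2354 CPM (log2 difference -0.41, edgeR's quasi-likelihood test, adjusted p = 1.24e-13). The sum of that list had a median of 4708 CPM in controls and 3946 CPM in cKOt mice. Aqp3 of the collecting duct list also fell (-0.25, adjusted p = 1.56e-09 by the same test). Of 6 retained genes of the hepatocyte list, 3 were lower and 2 higher. The lower ones were Alb (log2 difference -2.93), Serpina1a (-1.68), and Cyp2e1 (-0.74), and the higher ones Fga (2.40) and Apoa2 (0.37). Cyp2e1 averaged 1904 CPM in control mice, and whether this list follows liver cells was not tested. Tubular injury genes were lower for 2 of 6 and higher for 1. Their sum, mostly Spp1, ranged from 477 to 839 CPM in control and from 462 to 997 CPM in cKOt mice. Among the 3 retained erythroid genes, Slc4a1, which intercalated cells of the collecting duct also express, fell from 34.5 to 27.1 CPM (edgeR's quasi-likelihood test, adjusted p = 3.76e-08), and Hba-a1 and Hbb-bs did not pass.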
